A study of Mus musculus with 21 samples.

Results

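Liver RNA was compared between Cse knockout mice fed a diet without tryptophan and Cse knockout mice kept on the control diet. Cse (symbol Cth) encodes cystathionine γ-lyase, which makes cysteine from cystathionine, and both groups carried the deletion, so they differed by diet and not by genotype. The members were the 5 libraries titled cse_noTrp (KO noTrp below) and the 4 titled cse_CTR (KO CTR), which are 9 of the 21 liver libraries of the series, and they were chosen by title, without any measured value. Per the study's methods the mice were males on a 129 and C57BL/6 background, at least 9 weeks old and calorie restricted (CR). Livers of KO noTrp mice were sampled after 2 days without dietary tryptophan, before which all mice had eaten the control diet under CR for 3 days, and KO CTR mice stayed on it. In the tryptophan-free diet the other amino acids were raised in proportion, so the diets differed in more than tryptophan. A further 3 groups were used for comparison: KO noCys (n = 3), which are knockouts given the diet without cysteine, WT CTR (n = 3) and WT noTrp (n = 2). The study's text describes its comparison animals as heterozygous (Cse+/−), and WT is the name in the titles. The titles call the libraries biological replicates, and nothing in the sources links samples of the same number.

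Tryptophan is an essential amino acid, so it has to be eaten. The loss of an essential amino acid is sensed through uncharged tRNA and the kinase GCN2 (gene Eif2ak4), which starts the integrated stress response (ISR), a programme in which the transcription factor ATF4 raises genes for making, importing and charging amino acids. Liver is also where most tryptophan is broken down, by the kynurenine pathway, and where cholesterol and fatty acids are made under the SREBP transcription factors, which leave the endoplasmic reticulum (ER) when its membrane is short of sterol. The ER in turn folds secreted proteins with chaperones such as BiP (Hspa5), whose genes rise in the unfolded protein response (UPR). The study included tryptophan removal to tell the response to loss of cysteine from that to loss of another amino acid. It also named genes of an NRF2-dependent oxidative stress response (OSR).

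Levels below are counts per 1000000 counts (CPM) at library sizes scaled by the trimmed mean of M values (TMM). Total counts ran from 9752555 to 27230852 over the 9 libraries. The tissue was liver by its defining markers, with Alb at 45499 to 50504 CPM in the KO CTR livers and 32996 to 54098 CPM in KO noTrp. In a principal component plot of the 500 most variable genes, the first axis (24.4% of the variance) placed 3 of the KO CTR libraries at -13.2 to -16.7 and 4 of the KO noTrp libraries at 7.34 to 14.99. KO CTR replicate 2, the most deeply sequenced, lay at 3.48 and KO noTrp replicate 2 at -2.50. Cth (ENSMUSG00000028179, on chromosome 3 of GRCm38 between 157894248 and 157925077), the deleted gene, measured 14.6, 10.5, 11.7 and 14.99 CPM in the KO CTR livers and 9.61, 12.0, 13.7, 11.9 and 12.2 CPM in KO noTrp. The groups overlapped, its log2 fold change was -0.12 (adjusted p = 0.883, SE 0.28), and both lay below WT CTR, at 286, 221 and 157 CPM.

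Tryptophan removal in the knockout liver lowered 17 of 20 mRNAs of cholesterol synthesis and 7 of 22 of fatty acid synthesis, and it raised 11 of 24 of ER chaperones and the UPR, a count that was 2 without KO CTR replicate 1. The gene lists were written with earlier results of these data known. Of 14370 genes tested, 269 (1.87%) were called at a Benjamini-Hochberg adjusted p under 0.05 by edgeR's quasi-likelihood test, 112 higher (0.779%) and 157 lower (1.09%) in KO noTrp. An unadjusted p under 0.05 was reached by 2431 genes (16.9%), and DESeq2 and limma-voom called 607 and 610 (4.22% and 4.24% of the genes tested). A change of over 2-fold was reached by 25 of the higher and 60 of the lower genes. Among the called genes 248 were protein coding, 13 were pseudogenes and 8 were other noncoding genes. The groups did not overlap for 223 of the 269, against 909 of all genes tested (6.33%). With library totals in place of TMM scaling, 247 genes were called and the share higher was 55.5% in place of 41.6%, while the median log2 fold change of all genes moved from 0.00 to 0.05. The share higher was 27.9% with only the groups compared. Over the fits that left out a library it ran from 28.6% (without KO CTR replicate 1) to 44.3% (without KO CTR replicate 2). The number of calls depended on single animals: it was 105 without KO CTR replicate 1, 447 without KO CTR replicate 2, 140 without KO CTR replicate 3 and 141 without KO noTrp replicate 3. 85 of the 269 genes were called in all 9 fits that left out a library. These are levels in whole liver, in which fewer cells of a type and less RNA per cell cannot be told apart.

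**Figure D1:**
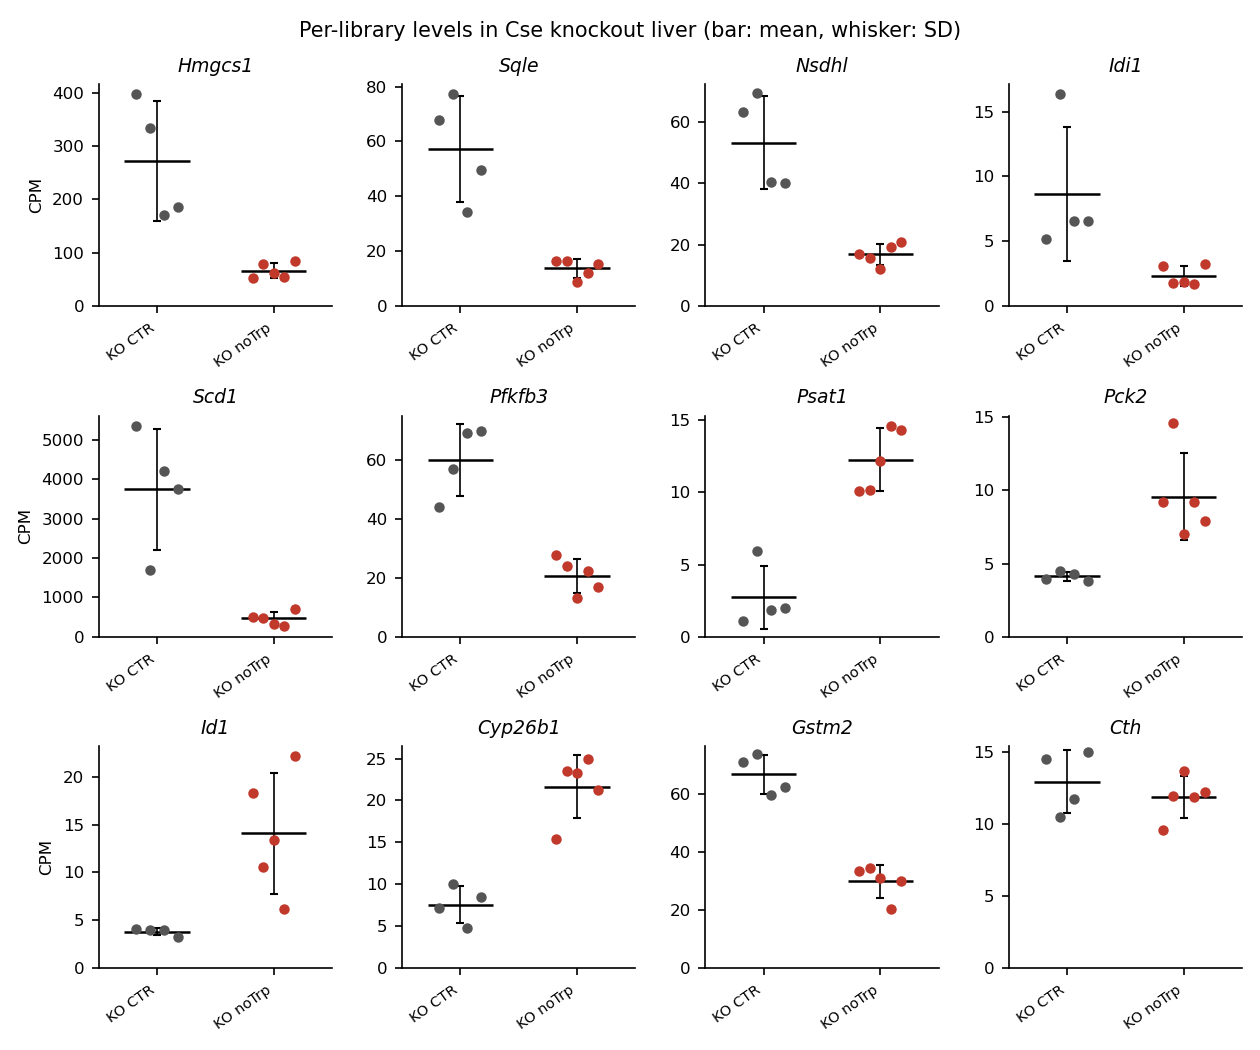
Levels in CPM (y axis, each panel with its own scale from 0) of 12 genes in the 4 KO CTR and 5 KO noTrp libraries. Points are libraries, bars are means and whiskers are SD. Cth, the deleted gene, is the 1 gene shown whose groups overlap.

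Cholesterol synthesis was the most widely changed of the gene lists. Of its 20 enzymes, 17 fell, 0 rose and 3 were not called, and the median log2 fold change was -1.07 against 0.00 over all genes tested. Each of the 20 had a negative log2 fold change and an unadjusted p under 0.05, which 16.9% of all genes reached. At the head of the pathway, Hmgcs1, the cytosolic synthase of HMG-CoA, was at 398, 334, 169.7 and 186 CPM in the KO CTR livers and at 52.0, 78.1, 61.4, 54.0 and 83.5 CPM in KO noTrp. Every KO noTrp library was below every KO CTR library, and Hmgcs1 fell by 2.05 on the log2 scale (adjusted p = 8.86e-05, SE 0.23).

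The middle and late enzymes moved the same way. The isoprenoid enzymes Mvd, Idi1 and Fdps fell by 1.79, 1.90 and 1.88 on the log2 scale, and the groups did not overlap for any of the 3. Sqle, the epoxidase that commits squalene to sterols, was at 67.9, 77.3, 34.2 and 49.7 CPM in the KO CTR livers and at 16.5, 16.2, 8.58, 12.0 and 15.4 CPM in KO noTrp, and it fell by 2.06 (adjusted p = 0.000685, SE 0.29). Nsdhl, which removes a methyl group after lanosterol, was at 63.3, 69.4, 40.6 and 40.1 CPM in the KO CTR livers and at 16.9, 15.5, 12.1, 19.3 and 20.7 CPM in KO noTrp. It had the lowest adjusted p of the list (8.25e-05) and fell by 1.67 (SE 0.18). Msmo1, the oxidase before it, fell by 1.79 (SE 0.24), with KO noTrp replicate 2 at 80.1 CPM and the other 4 at 48.1 to 54.4 CPM.

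Late enzymes of the pathway were called in part. Hsd17b7, which reduces a keto group formed in demethylation, fell by 0.77 (adjusted p = 0.00647), and Dhcr7, the reductase of 7-dehydrocholesterol, by 0.88 (adjusted p = 0.00519), both whichever library was left out. Ebp, the sterol isomerase, was at 279, 248, 241 and 256 CPM in the KO CTR livers and at 241, 242, 207, 204 and 229 CPM in KO noTrp, with a log2 fold change of -0.19 (adjusted p = 0.223, SE 0.08). Sc5d, a desaturase, had a log2 fold change of -0.47 (adjusted p = 0.237), and its groups overlapped. Within KO CTR, replicate 1 was the highest library for 9 of the 17 called genes and replicate 2 for the other 8, and replicate 3 was the lowest for 13. Within KO noTrp, replicate 2 was the highest for 10 and replicate 3 the lowest for 10. 13 of the 17 stayed called whichever library was left out, and the count ran from 13 to 17 over those fits. Those that did not included Cyp51 (lost without KO CTR replicate 1), Lss (without KO CTR replicate 1 or 2 or any KO noTrp replicate except 2) and Tm7sf2 (without KO CTR replicate 1 or 2 or KO noTrp replicate 3 or 4).

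**Figure D2:**
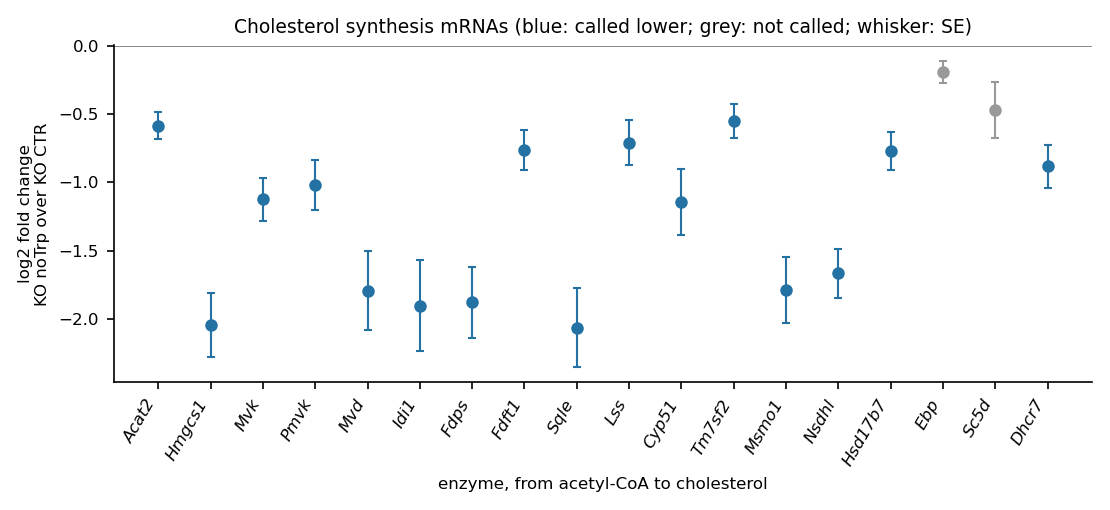
Log2 fold change of KO noTrp over KO CTR (y axis) for 18 of the 20 enzymes of cholesterol synthesis, in the order of the pathway (x axis). Whiskers are standard errors, blue marks genes called lower, grey marks Ebp and Sc5d, which were not called, and all points lie below 0, from -2.06 (Sqle) to -0.19 (Ebp).

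SREBP factors bind sterol regulatory elements, and the proximal promoters of RefSeq (GRCm38.p6, 250 bases before to 50 after each start site) held 15 of the 20 enzymes. The element was searched as TCACNCCAC on both strands. It was found for 1 of these 15, Hmgcs1, and for 388 of all 27025 genes with a promoter (1.44%). The 250 bases before the Hmgcs1 start site, chr13:119690101-119690350 on the plus strand, are shown because this gene had the second lowest log2 fold change of the list and carries the match, which is in capitals and starts 137 bases before the start site.
Hmgcs1: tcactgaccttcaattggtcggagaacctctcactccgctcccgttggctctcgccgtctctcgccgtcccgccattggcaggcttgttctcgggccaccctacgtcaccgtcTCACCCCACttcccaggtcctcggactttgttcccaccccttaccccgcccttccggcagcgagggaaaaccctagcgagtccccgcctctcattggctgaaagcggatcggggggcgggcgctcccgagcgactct

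Genes that control sterol supply fell in part. Of 23 tested genes of sterol control and uptake, 8 fell, 0 rose and 15 were not called, and the median log2 fold change of the list was -0.41. An unadjusted p under 0.05 was reached by 12 (52.2% against 16.9% of all genes). DESeq2 and limma-voom each called 8 (34.8% against 4.22% and 4.24% of all genes). Stard4, a sterol transfer protein, was at 157, 144, 116 and 106 CPM in the KO CTR livers and at 54.4, 75.6, 56.5, 72.0 and 84.7 CPM in KO noTrp. Every KO noTrp library was below the lowest control, and it fell by 0.93 (adjusted p = 0.00206, SE 0.15). Mmab, an enzyme of cobalamin metabolism, fell by 0.97, Acss2, which makes acetyl-CoA from acetate, by 0.91, Rdh11 by 0.86 and Tmem97 by 0.42. The call of Rdh11 was lost without KO CTR replicate 1. Srebf2, which encodes the SREBP of cholesterol synthesis, was at 54.3, 51.7, 41.5 and 46.0 CPM in the KO CTR livers and at 40.7, 37.5, 34.9, 31.4 and 31.9 CPM in KO noTrp and fell by 0.45 (adjusted p = 0.0178, SE 0.10), a call lost without KO CTR replicate 1. Scap, its escort protein, fell by 0.41 (adjusted p = 0.00794, SE 0.08). Insig1, a retention protein of the ER, had a log2 fold change of -0.54 and was not called (adjusted p = 0.181). The sterol exporters Abcg5 and Abcg8 had log2 fold changes of 0.15 and 0.19 and were not called.

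Part of fatty acid synthesis fell as well. Of 22 genes, 7 fell, 0 rose and 15 were not called, and the median log2 fold change of the list was -0.47. An unadjusted p under 0.05 was reached by 10 (45.5% against 16.9% of all genes), and DESeq2 and limma-voom each called 8. Scd1, the desaturase that makes oleate, was at 5362, 1686, 4198 and 3741 CPM in the KO CTR livers and at 513, 489, 335, 289 and 716 CPM in KO noTrp. The groups did not overlap and the level was 8-fold lower, a log2 fold change of -3.00 (adjusted p = 0.0017, SE 0.46). The elongases Elovl3 and Elovl5 fell by 1.49 (SE 0.30) and 1.30 (SE 0.19), and the groups did not overlap for either.

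Fasn, the synthase itself, was at 212, 125, 116 and 108 CPM in the KO CTR livers and at 51.5, 67.5, 49.9, 73.0 and 79.7 CPM in KO noTrp and fell by 1.12 (adjusted p = 0.0264, SE 0.26). That call was lost without KO CTR replicate 1, KO noTrp replicate 1 or KO noTrp replicate 3, and with library totals in place of TMM scaling, where 4 members of the list were called. Me1, a source of NADPH, fell by 1.02 (adjusted p = 0.0398), a call lost in 6 of the 9 fits that left out a library. Srebf1, which encodes the SREBP of lipogenesis, was at 151, 88.5, 88.9 and 76.5 CPM in the KO CTR livers and at 44.1, 67.1, 136, 138 and 160.4 CPM in KO noTrp. The KO noTrp libraries spread on both sides of the controls, and its log2 fold change was 0.11 (adjusted p = 0.902, SE 0.31). Of 35 genes of fatty acid oxidation and PPARα, 0 were called by edgeR (4, or 11.4%, had an unadjusted p under 0.05 against 16.9% of all genes, and DESeq2 and limma-voom each called 1), and the median log2 fold change of the list was 0.09. Cpt1a, the gate of mitochondrial oxidation, had a log2 fold change of 0.08 (adjusted p = 0.797).

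**Figure D3:**
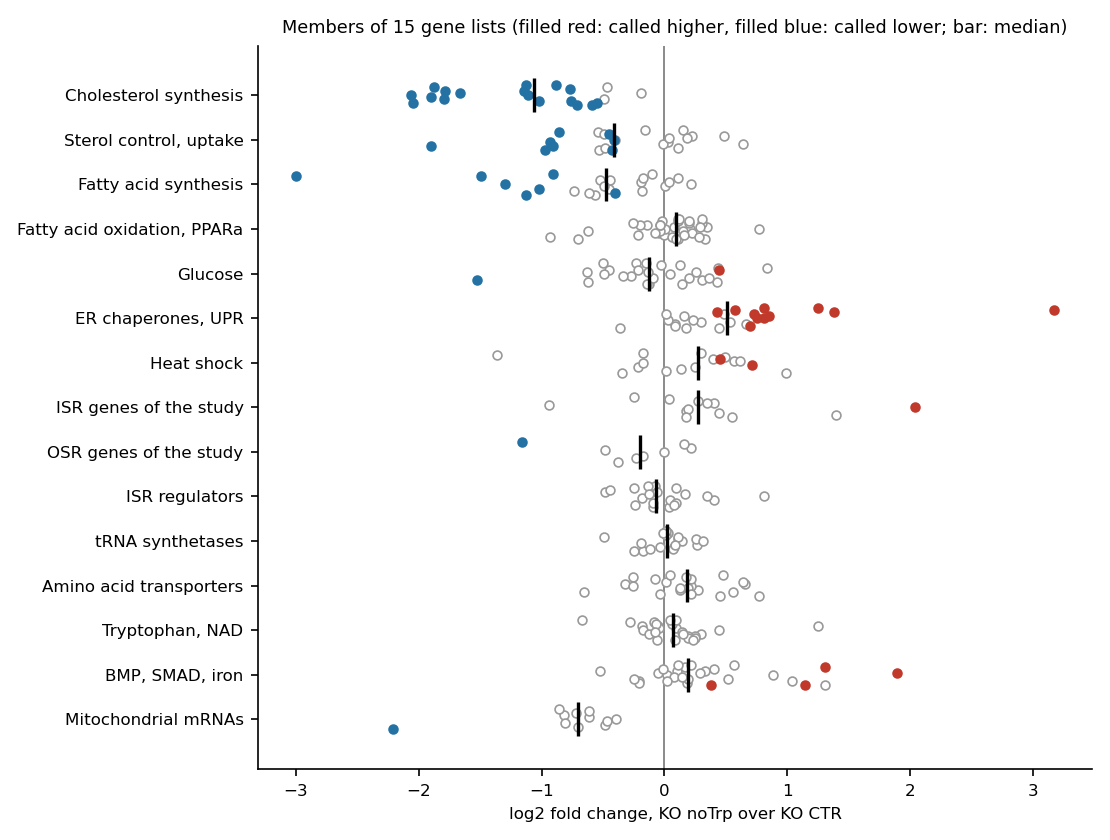
Log2 fold change of KO noTrp over KO CTR (x axis) for each tested member of 15 gene lists (rows). Filled red points were called higher, filled blue points were called lower, open points were not called, and black bars are medians. The medians are lowest for cholesterol synthesis (-1.07) and mitochondrial mRNAs (-0.70) and highest for ER chaperones (0.51).

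Part of the ER chaperones and other UPR genes rose. Of 24 genes, 11 rose, 0 fell and 13 were not called, their median log2 fold change was 0.51, and 23 of the 24 had a positive log2 fold change. An unadjusted p under 0.05 was reached by 17 (70.8% against 16.9% of all genes), and DESeq2 and limma-voom each called 13. Hspa5, the chaperone BiP, was at 461, 632, 712 and 723 CPM in the KO CTR livers and at 900.4, 1170.4, 933, 1528 and 1028 CPM in KO noTrp. The groups did not overlap and the log2 fold change was 0.82 (adjusted p = 0.0264, SE 0.19). Calr, the lectin chaperone calreticulin, was at 812, 816, 909 and 1113 CPM in the KO CTR livers and at 1253, 1469, 1420.1, 1897 and 1524 CPM in KO noTrp, a log2 fold change of 0.73 (adjusted p = 0.00545, SE 0.13), again without overlap. Its call and that of Dnajb11, a co-chaperone of BiP with a log2 fold change of 0.75 (adjusted p = 0.00299, SE 0.12), held whichever library was left out.

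The largest changes of the list were in less abundant members. Derl3, part of the machinery that retrieves misfolded proteins from the ER, was at 0.571, 1.03, 2.76 and 2.65 CPM in the KO CTR livers and at 2.44, 16.6, 11.9, 30.9 and 14.1 CPM in KO noTrp. KO noTrp replicate 1 lay among the controls and the other 4 lay above all of them, with a log2 fold change of 3.17 (adjusted p = 0.0138, SE 0.65). Sdf2l1 and Creld2, ER proteins induced in the UPR, had log2 fold changes of 1.38 and 1.25 (adjusted p = 0.0187 and 0.0336). Pdia4, Pdia6 and Pdia3, which form disulfide bonds, and Hyou1, a large chaperone, rose by 0.81, 0.70, 0.57 and 0.85, and Dnajc3, another co-chaperone, by 0.43. The sensors and regulators did not pass the test: Xbp1 had a log2 fold change of 0.49 (adjusted p = 0.171), Atf6 of 0.18 (adjusted p = 0.405) and Ern1 of -0.36 (adjusted p = 0.281). Herpud1, another gene of ER-associated degradation, had a log2 fold change of 0.01.

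Most of these genes had their extremes in the same animals. KO noTrp replicate 4 was the highest of its group for 10 of the 11 called genes and KO noTrp replicate 1 the lowest for 10, while KO CTR replicate 1 was the lowest control for 10. Calls that rested on few fits were those of Hyou1, Pdia3 and Creld2, lost in 8, 7 and 6 of the 9 fits that left out a library. The number called was 2 without KO CTR replicate 1, 7 without KO CTR replicate 3 and 5 without KO noTrp replicate 4, and it was 3 when only the knockout groups compared were fitted. In the cytosol, Hspa8, the constitutive HSP70, rose by 0.71 (adjusted p = 0.0153) and its partner Dnaja1 by 0.45 (adjusted p = 0.0205), while edgeR did not call the other 14 of 16 heat shock genes. Of the 16, 10 had an unadjusted p under 0.05 (62.5% against 16.9% of all genes), DESeq2 called 4 and limma-voom 3. The calls of Hspa8 and Dnaja1 were both lost without KO CTR replicate 1, that of Hspa8 also without KO CTR replicate 4 and that of Dnaja1 also without KO CTR replicate 3.

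**Figure D4:**
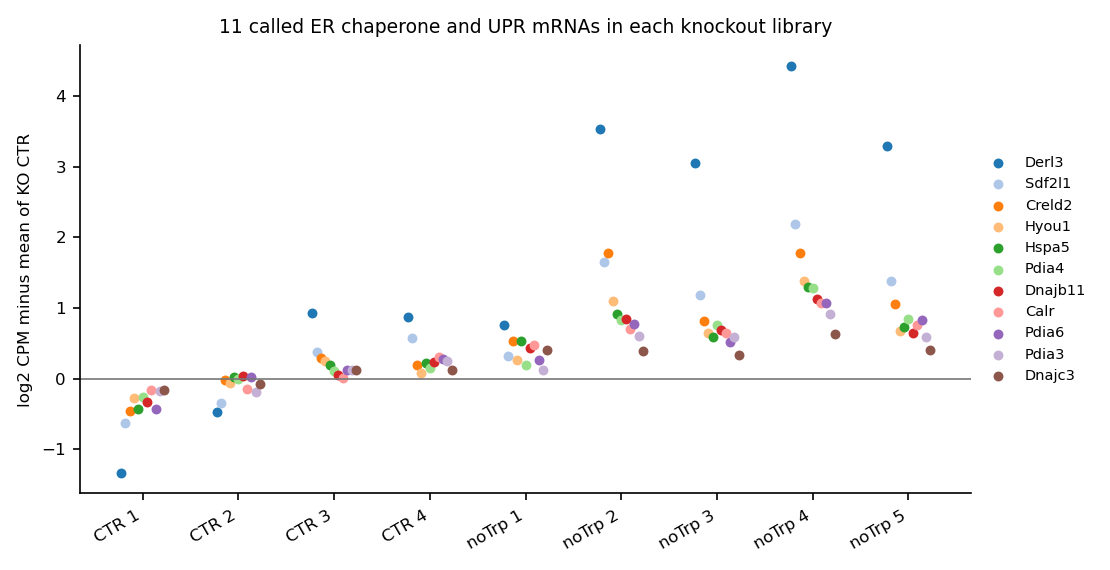
Log2 CPM of the 11 called ER chaperone and UPR genes in each knockout library (x axis), minus the mean of log2 CPM over the 4 KO CTR libraries (y axis). Colours are genes and each point is 1 library. KO noTrp replicate 4 is the highest library for 10 of the 11 genes, and Derl3 has the widest range.

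UPR factors act through the ER stress response element, searched here as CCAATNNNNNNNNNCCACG on both strands. It was found in the promoters of 9 of the 20 listed genes that had one in RefSeq (45%), and for 37 of all 27025 genes (0.137%). Of the 9, Calr, Creld2, Derl3, Dnajc3, Hspa5 and Pdia6 were called higher and Canx, Hsp90b1 and Syvn1 were not. The 250 bases before the start site of the 6 called genes are shown, with the element in capitals. They are chr2:34771840-34772089 for Hspa5, chr10:75893148-75893397 for Derl3, chr15:88819396-88819645 for Creld2, chr14:118937682-118937931 for Dnajc3 and chr12:17266339-17266588 for Pdia6, all on the plus strand, and chr8:84846932-84847181 for Calr on the minus strand. The element read CCAAT first in Hspa5, Dnajc3 and Pdia6 and was on the opposite strand in Calr, Derl3 and Creld2. It started 65, 105 and 98 bases before the start site in Hspa5, Dnajc3 and Pdia6, and 162 and 156 bases before it in Calr and Derl3.
Hspa5: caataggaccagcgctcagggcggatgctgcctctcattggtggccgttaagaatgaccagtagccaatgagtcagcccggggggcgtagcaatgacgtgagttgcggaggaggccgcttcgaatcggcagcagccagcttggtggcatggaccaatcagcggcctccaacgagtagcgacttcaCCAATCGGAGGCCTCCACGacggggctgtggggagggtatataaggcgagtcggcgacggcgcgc
Dnajc3: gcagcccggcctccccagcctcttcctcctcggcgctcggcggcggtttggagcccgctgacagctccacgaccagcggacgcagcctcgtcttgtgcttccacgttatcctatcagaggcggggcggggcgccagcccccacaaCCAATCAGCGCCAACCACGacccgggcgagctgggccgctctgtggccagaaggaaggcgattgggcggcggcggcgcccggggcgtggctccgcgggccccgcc
Pdia6: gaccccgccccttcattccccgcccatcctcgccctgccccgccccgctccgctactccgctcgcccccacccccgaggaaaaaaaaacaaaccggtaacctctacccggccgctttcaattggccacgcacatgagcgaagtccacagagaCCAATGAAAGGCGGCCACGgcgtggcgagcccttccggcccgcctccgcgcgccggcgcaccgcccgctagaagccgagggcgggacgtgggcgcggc
Calr: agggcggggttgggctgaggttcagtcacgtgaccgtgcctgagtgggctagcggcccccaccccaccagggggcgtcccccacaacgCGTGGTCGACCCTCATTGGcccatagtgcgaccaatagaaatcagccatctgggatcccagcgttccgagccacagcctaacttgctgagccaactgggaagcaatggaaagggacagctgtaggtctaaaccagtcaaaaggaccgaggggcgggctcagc
Derl3: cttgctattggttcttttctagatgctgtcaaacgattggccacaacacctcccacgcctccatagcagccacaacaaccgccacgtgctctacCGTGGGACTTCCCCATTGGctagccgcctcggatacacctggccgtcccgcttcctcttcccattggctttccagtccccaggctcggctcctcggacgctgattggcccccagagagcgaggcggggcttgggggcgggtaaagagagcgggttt
Creld2: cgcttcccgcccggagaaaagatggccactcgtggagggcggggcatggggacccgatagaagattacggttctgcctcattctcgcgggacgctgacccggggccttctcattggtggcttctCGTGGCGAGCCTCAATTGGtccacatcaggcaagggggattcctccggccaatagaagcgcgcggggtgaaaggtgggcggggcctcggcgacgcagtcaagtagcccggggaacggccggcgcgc

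The ISR genes that the study's text names were mostly not called. Of 13, 1 rose, 0 fell and 12 were not called, and the median log2 fold change of the list was 0.27, with 11 positive and 2 negative. An unadjusted p under 0.05 was reached by 3 (23.1% against 16.9% of all genes). DESeq2 and limma-voom each called 2 (15.4% against 4.22% and 4.24% of all genes). The study chose these genes, and the OSR genes below, on samples that took in the present ones, which means that they are no independent evidence of a direction. The gene that rose was Psat1, the aminotransferase of serine synthesis, at 1.07, 5.96, 1.89 and 2.01 CPM in the KO CTR livers and 10.1, 10.2, 12.2, 14.6 and 14.3 CPM in KO noTrp. The groups did not overlap, and the log2 fold change was 2.04 (adjusted p = 0.00366, SE 0.34), or 2.90 without KO CTR replicate 2. Pck2, the mitochondrial PEP carboxykinase and a target of ATF4 that is on no list here, was at 3.92, 4.50, 4.25 and 3.84 CPM in the KO CTR livers and at 9.18, 14.5, 6.996, 9.19 and 7.91 CPM in KO noTrp, a log2 fold change of 1.19 (adjusted p = 0.005, SE 0.21).

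Psat1 was also the 1 gene called by edgeR of 20 of serine, proline and asparagine synthesis and folate metabolism. DESeq2 and limma-voom each called 2 of them, 12 log2 fold changes were positive and 8 negative, and the median was 0.07. Pycr1, a proline synthesis enzyme, was at 0.157 to 0.642 CPM in the KO CTR livers and 0.746 to 1.24 CPM in KO noTrp, without overlap (log2 fold change 1.40, SE 0.37, adjusted p = 0.0553), and it was called without KO CTR replicate 1 and by DESeq2 and limma-voom. Asns, asparagine synthetase, was at 14.3, 31.2, 17.5 and 29.0 CPM in the KO CTR livers and at 43.3, 35.4, 24.9, 35.2 and 30.4 CPM in KO noTrp (log2 fold change 0.55, adjusted p = 0.362). Mthfd2, a mitochondrial folate enzyme, had a log2 fold change of 0.04 (SE 0.41), and the hormones Fgf21 and Gdf15 had -0.94 (SE 0.71) and 0.44 (SE 0.52). KO CTR replicate 2 held the highest control level of Fgf21, at 19.4 CPM against 0.787 to 3.78 CPM in the other 3 controls, and without it the log2 fold change turned to 0.90.

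The regulators and effectors of the ISR were not called either. Of 20 ISR regulators, 0 were called by edgeR, DESeq2 or limma-voom, and 4 had an unadjusted p under 0.05 (20% against 16.9% of all genes). Atf4 was at 161, 146, 117 and 109 CPM in the KO CTR livers and at 108, 94.1, 91.6, 78.3 and 105 CPM in KO noTrp, with a log2 fold change of -0.49 (adjusted p = 0.118, SE 0.16) in which every KO noTrp library lay below every control. Of 20 cytosolic tRNA synthetases, 0 were called by any of the 3 tools and 3 had an unadjusted p under 0.05 (15%, below the share of all genes). Wars, which charges tRNA with tryptophan, had the highest log2 fold change of them, 0.32 (adjusted p = 0.2). Of 22 tested amino acid transporters, 0 were called by edgeR, 7 had an unadjusted p under 0.05 (31.8%), DESeq2 called 1 and limma-voom 2. The 8-base ATF4 and C/EBP composite element, TGATGNAA, was found in the promoters of 5 of the 12 ISR genes of the study with a RefSeq promoter (Asns, Fgf21, Pycr1, Slc1a4 and Trib3) and for 4.51% of all genes. It was not found in that of Psat1.

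Of the 8 OSR genes of the study, 1 fell and 7 were not called. An unadjusted p under 0.05 was reached by 1 (12.5% against 16.9% of all genes), and DESeq2 and limma-voom each called 1. Gstm2, a glutathione S-transferase, was at 71.2, 73.9, 59.9 and 62.5 CPM in the KO CTR livers and at 33.6, 34.7, 31.1, 20.5 and 29.997 CPM in KO noTrp. The groups did not overlap, and it fell by 1.16 (adjusted p = 0.00119, SE 0.17). Its near relatives Gstm1, Gstm3 and Gstm4 had log2 fold changes of -0.17, -0.48 and -0.23 and were not called, and reads could be shared between these paralogues, to an extent that was not measured here. Nqo1 and Srxn1, further NRF2 targets, had log2 fold changes of 0.16 and -0.01.

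Genes that handle tryptophan itself were not called by edgeR. Of 26 tested genes of tryptophan breakdown and NAD synthesis, 0 were called, 6 had an unadjusted p under 0.05 (23.1% against 16.9% of all genes), and DESeq2 and limma-voom each called 3 (11.5% against 4.22% and 4.24%). Tdo2, the dioxygenase that opens the kynurenine pathway, was at 1277, 1604, 1776 and 1893 CPM in the KO CTR livers and at 2193, 1327, 1812, 1671 and 1444 CPM in KO noTrp, with a log2 fold change of 0.04 (SE 0.20). Nnmt, which methylates nicotinamide, was at 122, 94.3, 166 and 214 CPM in the KO CTR livers and at 574, 454, 325, 275 and 146 CPM in KO noTrp (log2 fold change 1.25, SE 0.34, adjusted p = 0.0591). Only KO noTrp replicate 5 lay within the range of the controls. Haao and Ddc, enzymes of quinolinate and of serotonin synthesis, did not overlap between groups, with log2 fold changes of -0.28 and -0.67 (adjusted p = 0.0723 and 0.068). They were the 2 of the 26 without overlap, and 6.33% of all genes tested had none either.

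A few genes of BMP signalling rose. This pathway acts through SMAD proteins and in liver controls the iron hormone hepcidin (Hamp). Of 28 genes of BMP, SMAD and iron, 4 rose, 0 fell and 24 were not called, and the median log2 fold change of the list was 0.19. An unadjusted p under 0.05 was reached by 10 (35.7% against 16.9% of all genes). DESeq2 called 5 (17.9% against 4.22% of all genes) and limma-voom 6 (21.4% against 4.24%). Id1, an inhibitor of bHLH factors and a direct SMAD target, was at 4.07, 3.997, 3.94 and 3.20 CPM in the KO CTR livers and at 18.3, 10.6, 13.3, 6.13 and 22.2 CPM in KO noTrp, a log2 fold change of 1.89 (adjusted p = 0.00206, SE 0.30). Id3 was at 13.1 to 16.4 CPM in the KO CTR livers and 19.7 to 53.1 CPM in KO noTrp (log2 fold change 1.31), and Smad6, an inhibitor of the pathway, at 2.50 to 5.12 and 6.24 to 10.3 CPM (log2 fold change 1.15). KO noTrp replicate 4 was the lowest of its group for both Id genes, and the groups did not overlap for any of the 3.

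Acvr1, a receptor, rose by 0.38 (adjusted p = 0.0457), and its call was lost in 8 of the 9 fits that left out a library. The call of Id3 was lost without KO CTR replicate 1 or 3 or KO noTrp replicate 5, and that of Smad6 without KO CTR replicate 1. The number of members called was 1 without KO CTR replicate 1 and 2 without KO CTR replicate 3 or KO noTrp replicate 5. Hamp was at 897, 107, 290.0 and 347 CPM in the KO CTR livers and at 1392, 1230.0, 1341, 425 and 693 CPM in KO noTrp, with overlap (log2 fold change 1.31, SE 0.49, adjusted p = 0.175). Bmp2, a ligand made by liver endothelium, had a log2 fold change of 0.57 (adjusted p = 0.0629).

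Other single genes outside those groups changed. Fbf1, a centriole protein, was at 13.8, 13.99, 11.7 and 15.4 CPM in the KO CTR livers and at 125.6, 60.8, 74.5, 30.5 and 21.6 CPM in KO noTrp, without overlap (log2 fold change 2.20, SE 0.42, adjusted p = 0.00794). Cyp26b1, which breaks down retinoic acid, was at 7.13, 9.99, 4.72 and 8.41 CPM in the KO CTR livers and at 15.4, 23.5, 23.2, 24.9 and 21.3 CPM in KO noTrp (log2 fold change 1.495, SE 0.19, adjusted p = 0.00027). By edgeR it was the 1 gene called of 17 tested retinoid genes, of which 7 had an unadjusted p under 0.05 (41.2%) and DESeq2 and limma-voom each called 3 (17.6%). Odc1, the first enzyme of polyamine synthesis, rose by 0.96, and Hist1h1c, a linker histone, by 1.14 (adjusted p = 0.0146 and 0.00794), both without overlap between groups.

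Further genes among the 15 largest rises were Tnfaip2 (1.16), Als2cl (0.98), Pla2g7, the platelet-activating factor acetylhydrolase (0.95), Patz1 (0.93) and Ctif (0.91). The calls of Patz1, Als2cl and Pla2g7 were lost in 7, 4 and 3 of the 9 fits that left out a library. Of 112 tested genes named here, 34 overlap another annotated gene. They are 22 of the called genes, Fdps, Cyp51, Lss, Tm7sf2, Acss2, Scap, Elovl3, Me1, Pdia3, Pdia6, Dnaja1, Acvr1, Fbf1, Odc1, Als2cl, Pla2g7, Patz1, Ctif, Pfkfb3, Por, Stab1 and mt-Atp6, and 12 that were not called, among them Cth, Srebf1, Atf6, Herpud1, Wars and Ddit3. The strand setting of the counting is not given in the sources used here, so reads of the overlapping genes cannot be told apart.

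Among the falls, Pfkfb3, a kinase that makes the activator of glycolysis fructose 2,6-bisphosphate, was at 44.2, 57.1, 69.3 and 69.9 CPM in the KO CTR livers and at 27.9, 23.9, 13.2, 22.2 and 17.0 CPM in KO noTrp. The groups did not overlap, and it fell by 1.53 (adjusted p = 0.000505, SE 0.20), 1 of 2 genes called by edgeR of 27 of glucose metabolism, of which DESeq2 and limma-voom each called 4. The other, Crtc2, a coactivator of gluconeogenic genes, rose by 0.45 (adjusted p = 0.0248), a call lost without KO CTR replicate 3 or 4 or KO noTrp replicate 3. Pck1 and G6pc, gluconeogenic enzymes, had log2 fold changes of -0.09 and 0.30. Fabp5, a fatty acid binding protein, fell by 2.05 (adjusted p = 0.0318, SE 0.48), a call lost without KO CTR replicate 3 or 4 or KO noTrp replicate 3, 4 or 5, and Fam25c fell by 1.76 (adjusted p = 0.000858, SE 0.25).

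Single members of other lists also passed the test. Gpt, alanine aminotransferase, rose by 0.42. It was the 1 gene called by edgeR of 34 of amino acid breakdown and the urea cycle (1.87% of all genes were called), and DESeq2 called 3 and limma-voom 2. Abcc3, an exporter of bile acid conjugates, rose by 0.54, the 1 called by edgeR of 22 tested bile acid genes, of which DESeq2 called 2 and limma-voom 3. Por, the reductase that serves cytochrome P450 enzymes, and Cyp2c70 rose by 0.69 and 0.72, the 2 called by edgeR of 34 tested P450 and xenobiotic genes (DESeq2 called 3 and limma-voom 4). The call of Por was lost in 6 of the 9 fits that left out a library, and that of Cyp2c70 without KO CTR replicate 1 or 3. Cdkn1b, a cell cycle inhibitor, rose by 0.35, a call lost in 6 of the 9 fits that left out a library. Of the lists of immediate early, clock and feeding, acute phase, mTORC1 and autophagy, pericentral and periportal genes, 0 members were called by edgeR. DESeq2 called 0, 1, 1, 0, 1 and 1 of them, limma-voom 0, 0, 1, 1, 3 and 1, and 1, 5, 3, 4, 6 and 2 had an unadjusted p under 0.05, which is 3.57% to 30% of the lists against 16.9% of all genes.

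Each tested mRNA made in mitochondria had a negative log2 fold change, though only mt-Atp6 was called. Of 11 tested, 1 fell and 10 were not called, and the median log2 fold change of the 11 was -0.70. An unadjusted p under 0.05 was reached by 9 of the 11 (81.8% against 16.9% of all genes). The 1 called was mt-Atp6, a subunit of ATP synthase, at 32.1, 10.0, 55.9 and 21.2 CPM in the KO CTR livers and at 5.21, 8.16, 5.41, 6.03 and 7.39 CPM in KO noTrp. It fell by 2.21 (adjusted p = 0.0133, SE 0.45), without overlap, and the call was lost without KO CTR replicate 3. Of the 50-base stretches of its transcript, 99.5% also occur in nuclear transcripts of the annotation, so reads that fit both places could be left uncounted, and its value is uncertain. Several of the other mitochondrial mRNAs shared large parts of theirs, up to 100%, so their values are uncertain too. Some nuclear genes that hold such stretches were also called lower, in part whichever library was left out. mt-Cytb and mt-Nd1 shared 0% of their stretches, with log2 fold changes of -0.62 (adjusted p = 0.13) and -0.48 (adjusted p = 0.194). Mitochondrial genes took 7.16%, 4.49%, 7.29% and 6.08% of the counts in KO CTR and 3.43%, 4.33%, 3.41%, 4.74% and 4.79% in KO noTrp. The ranges overlapped at KO CTR replicate 2 (exact two-sided permutation test over the 9 libraries, p = 0.0238, adjusted over 13 values 0.138). Without that library 5 mitochondrial mRNAs were called, and DESeq2 called 5 and limma-voom 4 with all 9.

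Markers of other cell types differed in part between the groups. Kupffer cell markers, summed over 10 genes, ran from 140.1 to 290.0 CPM in the KO CTR livers and 216 to 382 CPM in KO noTrp, with 9 of 10 log2 fold changes positive and 1 gene, Clec4f, called (0.86, adjusted p = 0.0378), while 7 had an unadjusted p under 0.05, DESeq2 called 3 and limma-voom 2. Endothelial markers ran from 149 to 242 CPM and 203 to 279.8 CPM, with 10 of 10 positive and 1 gene, Stab1, called (0.53, adjusted p = 0.0407), while 7 had an unadjusted p under 0.05 and DESeq2 and limma-voom each called 2. Both calls were lost in 6 of the 9 fits that left out a library. Stellate markers ran from 239.7 to 502 CPM in the KO CTR livers and 227 to 288 CPM in KO noTrp, with 10 of 10 negative and 0 called by edgeR (7 had an unadjusted p under 0.05, DESeq2 called 1 and limma-voom 0).

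Erythroid markers ran from 179 to 338 CPM in the KO CTR livers and 108 to 219 CPM in KO noTrp, with 5 of 5 tested negative. All 5 had an unadjusted p under 0.05 (against 16.9% of all genes), edgeR called 0, and DESeq2 and limma-voom each called 1. The exact permutation tests gave p = 0.0635 for Kupffer cells, 0.0556 for endothelial and for stellate cells and 0.0476 for erythroid cells, each 0.138 after adjustment over 13 values. Of the other lists, the pancreas sum ran from 11.4 to 14.3 CPM and 14.8 to 22.2 CPM with its defining genes Cpa1, Cela3b, Pnlip and Amy2a5 at 0 in all 9 libraries (exact permutation p = 0.0317, 0.138 after the same adjustment). Hepatocyte, cholangiocyte, lymphoid, neutrophil, gut and gallbladder, adipocyte and muscle sums overlapped between groups. The hepatocyte sum ran from 77900 to 87258 CPM in KO CTR and 61981 to 87192 CPM in KO noTrp. Only KO noTrp replicate 1 lay within the range of the controls (exact permutation p = 0.103, 0.192 after the same adjustment). Of the tested hepatocyte markers, 7 had a negative log2 fold change and 2 a positive one. 1 of 9 tested hepatocyte markers, Ttr, fell (by 0.46, adjusted p = 0.0225), a call lost without KO CTR replicate 1 or 3 or KO noTrp replicate 4. The part of these shifts in the results above, among them the rise of Id1, Id3 and Smad6, genes that endothelial cells also express, was not tested.

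Against knockouts that lacked dietary cysteine, knockouts that lacked tryptophan had lower ISR and OSR levels and higher levels of part of the sterol genes. KO noTrp was compared with KO noCys directly, and 2000 of 14370 genes were called (13.9%), 970 higher (6.75%) and 1030 lower (7.17%) in KO noTrp. With library totals in place of TMM scaling, the share higher was 31.8% in place of 48.5%. All 8 OSR genes and 12 of the 13 ISR genes of the study were lower in KO noTrp, with median log2 differences of -1.86 and -1.98. The study named these genes for their rise in knockouts without cysteine, on samples that took in the present ones. Their direction here followed largely from that choice and is no independent evidence. KO noCys replicate 1 was the lowest of its group for all 13 ISR genes. It was at less than 1/2 of both other libraries for 8 of them, such as Mthfd2 (6.77 CPM against 36.6 and 27.7) and Fgf21 (6.88 against 43.3 and 34.8). For Slc1a4, Gdf15, Ddit3, Trib3 and Atf6 it lay within the KO noTrp range, and for the 8 OSR genes it did not. Without that library the same number of ISR genes, 12, was lower and the median was -2.22, and without KO noCys replicate 3 the number was 9. Psat1, which rose without tryptophan, was still lower than without cysteine, where it was at 47.5, 65.5 and 48.97 CPM (log2 difference -2.14, SE 0.32, adjusted p = 0.000211). Pck2 was at 46.5, 89.3 and 52.7 CPM in KO noCys (log2 difference -2.73, SE 0.20, adjusted p = 4.03e-08), and Gstm1 at 3871, 3899 and 3144 CPM against 876 to 1033 CPM in KO noTrp (log2 difference -1.97, SE 0.12). Of 20 tRNA synthetases, 16 were lower in KO noTrp, or 10 without KO noCys replicate 3.

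Part of the sterol genes were lower still without cysteine. Of the 20 cholesterol enzymes, 11 were higher in KO noTrp than in KO noCys and 0 lower, with a median log2 difference of 0.71, and 4 were higher without KO noCys replicate 3. Nsdhl was at 6.65, 5.58 and 6.04 CPM in KO noCys (log2 difference 1.48, SE 0.22, adjusted p = 0.000276). Hmgcs1 was at 47.9, 35.5 and 38.4 CPM, with a log2 difference of 0.70 (SE 0.26) that was not called (adjusted p = 0.0788). Scd1 was at 836, 258 and 264 CPM in KO noCys, with a log2 difference of 0.05 (SE 0.49) that was not called. Of the 24 ER chaperone and UPR genes, Derl1 and Ern1 were lower in KO noTrp (-0.62 and -0.78), 0 were higher and 22 were not called, with a median log2 difference of -0.02. The 3 genes furthest above KO noCys under the naming rule were Selenbp2 (log2 difference 4.65), Saa2 and Saa1, and the 3 furthest below it were Nupr1 (-4.02), Mthfd2 (-3.49) and Gstm3 (-3.33). KO noTrp replicate 1 held the highest level of both acute phase genes, with Saa1 at 978 CPM against 81.1 to 138 CPM in the other 4 and Saa2 at 275 CPM against 27.9 to 59.2 CPM. Their calls (log2 differences 3.37 and 3.89, adjusted p = 0.048 and 0.0438) were lost in 6 of the 8 fits that left out a library, and without KO noTrp replicate 1 the log2 differences were 2.002 and 2.83 (adjusted p = 0.142 and 0.1). For Nupr1, KO noCys replicate 1 was again low, at 5.75 CPM against 59.7 and 42.9 CPM. The number of genes called was 570 without KO noCys replicate 3 and 1197 without KO noCys replicate 4.

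**Figure D5:**
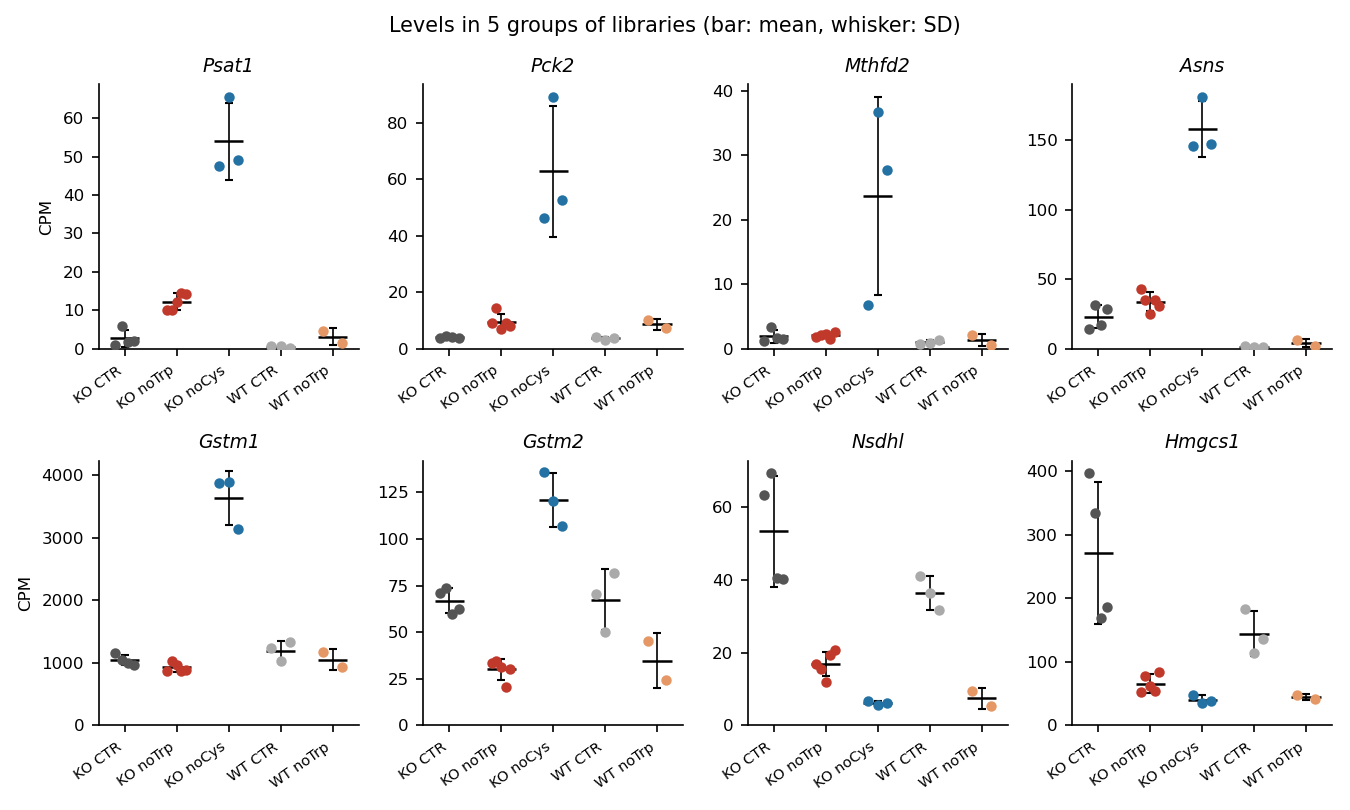
Levels in CPM (y axis, each panel from 0) of 8 genes in KO CTR (n = 4), KO noTrp (n = 5), KO noCys (n = 3), WT CTR (n = 3) and WT noTrp (n = 2). Points are libraries, bars are means and whiskers are SD. Psat1, Pck2, Mthfd2, Asns, Gstm1 and Gstm2 have their highest mean in KO noCys, and Nsdhl and Hmgcs1 their lowest.

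Whether removing tryptophan acted differently in the knockout than in WT liver was tested as a difference between the diet effects. By edgeR 0 of 14370 genes were called (0.0%), the lowest adjusted p was 0.332, 821 genes had an unadjusted p under 0.05, DESeq2 called 17 and limma-voom 0. With 2 WT noTrp libraries that differed widely, this does not show that the genotypes responded alike. Hmgcs1 was at 184, 113 and 136 CPM in WT CTR and 48.2 and 41.6 CPM in WT noTrp, and the log2 difference between the effects was -0.36 (SE 0.39). Psat1 was at 0.741, 0.618 and 0.232 CPM in WT CTR and 4.76 and 1.57 CPM in WT noTrp (-0.49, SE 0.77), and Pck2 at 4.02, 3.25 and 3.72 CPM and 10.1 and 7.32 CPM (-0.06, SE 0.36). Scd1 was at 8603, 8341 and 4917 CPM in WT CTR and at 5894 and 848 CPM in WT noTrp (-1.89, SE 0.74, adjusted p = 0.793). For Hmgcs1, Psat1 and Pck2 both WT noTrp libraries lay on the same side of the WT controls as KO noTrp lay of KO CTR. Without WT noTrp replicate 2, 67 genes were called, in a fit that left 1 library in that group and assumed that it varied like the other groups.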

How the data were processed

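The deposited values are raw read counts per Ensembl gene. Per the labels and the study's methods, the authors prepared paired-end NEBNext Ultra libraries of poly(A) RNA after TRIzol extraction, aligned reads to GRCm38 with HISAT2 2.1.0 and counted them with HTSeq 0.11.0. The annotation release and strand setting are not given in the sources used here. Of 46078 genes in the table, 45229 were named from GENCODE (the other 849 held 0.0536% of the counts), and 1 column that matched no sample was not used.

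Here genes were kept by filterByExpr (minimum count 10, minimum total 15), scaled by TMM and fitted over all 21 libraries in 1 one-way model with edgeR 4.0.16 (R 4.3.3, limma 3.58.1), with the quasi-likelihood test and Benjamini-Hochberg adjustment at 0.05. A gene passing this threshold is called. Effects are log2 fold changes with standard errors (SE). Marker sums and the mitochondrial share were compared by exact two-sided permutation tests over 126 splits. The design was also fitted with DESeq2 1.42.0 (the authors' tool), limma-voom, RLE size factors, library totals, no filter, the compared groups alone, a replicate block and each library left out.

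Named genes were the deleted gene, the 15 largest rises and 15 largest falls among called genes whose groups did not overlap and that averaged over 2 log2 CPM, the called members and up to 4 others of each list, the ISR and OSR genes in the study's text and the 3 largest differences in each direction against other groups. The gene lists and the genes in them were chosen with earlier results of these data known, whereas the libraries were chosen by title. The script was tested on simulated data. Promoters were taken from RefSeq. Some genes of the lists are not reported here by name.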

Additional observations from a re-analysis of the deposited data

Results flagged for a closer look

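In 262 groups of 4 or 5 libraries, taken from the named genes, the marker sums and the mitochondrial share, 8 held a library far from the others by Dixon's criterion, which by chance alone flags about 1 group in 20. Id1 was at 3.20 CPM in KO CTR replicate 4 and at 3.94 to 4.07 CPM in the other 3 controls (gap over range 0.865). Msmo1 was at 80.1 CPM in KO noTrp replicate 2 and at 48.2 to 54.4 CPM in the other 4 libraries of its group (0.76). Gstm2 was at 20.5 CPM in KO noTrp replicate 4 and at 29.997 to 34.7 CPM in the other 4 (0.725). Acss2 was at 147 CPM in KO CTR replicate 1 and at 102 to 108 CPM in the other 3 controls (0.847). Dnajc3 was at 321 CPM in KO noTrp replicate 4 and at 262 to 274 CPM in the other 4 (0.786). Herpud1 and G6pc, which were not called, were at 454 and 131 CPM in KO CTR replicate 1 and at 614 to 648 CPM and 305 to 330 CPM in the other 3 controls (0.849 and 0.915). Saa1 was at 978 CPM in KO noTrp replicate 1 and at 81.1 to 138 CPM in the other 4 (0.787). Without the library concerned Id1, Msmo1, Gstm2 and Acss2 stayed called, while the call of Dnajc3, and that of Saa1 against KO noCys, were lost.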

How the results depend on the processing

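The number of genes called between KO noTrp and KO CTR was 607 with DESeq2, 610 with limma-voom and 136 with only the groups compared, and it ran from 105 to 447 when single libraries were left out. It was 273 with RLE size factors, 247 with library totals and 308 without a filter. DESeq2 and limma-voom shared 264 and 263 of the 269. For the difference between genotypes DESeq2 called 17 genes, a fit without a filter called 10 genes, and single libraries left out gave 0 to 67. KO noTrp against KO noCys gave 3204 calls with limma-voom and 570 to 2124 with single libraries left out. ISR genes called were 2 with DESeq2 and with limma-voom and 1 to 2 with libraries left out, fatty acid genes 4 with library totals, and ER genes 3 with only the groups compared and 2 to 11 with libraries left out. Some genes that were not called changed sign. With single libraries left out, Mthfd2 ran from -0.13 to 0.53, Fgf21 from -1.28 to 0.90, Gdf15 from -0.12 to 0.64, Gsta2 from -0.022 to 0.45, Srxn1 from -0.086 to 0.060, Srebf1 from -0.072 to 0.37, Cpt1a from -0.0018 to 0.14, Herpud1 from -0.14 to 0.10 and Tdo2 from -0.068 to 0.12. With limma-voom Fgf21 was at 0.32, Srxn1 at 0.030, Herpud1 at -0.12, Tdo2 at -0.048 and G6pc at -0.045, and with library totals Srxn1 was at 0.044. The cause was not tested. Same-numbered samples did not deviate together (correlations of -0.179, -0.355, -0.082 and -0.069), but so few values cannot show whether the numbers pair them. With a replicate block 218 genes were called, of which 181 were among the 269, and 1302 against KO noCys, and Mthfd2, Gdf15 and Srebf1 moved to -0.014, -0.045 and -0.13. What sequencing depth limits was not compared between genes.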
